A study of Mus musculus with 13 samples.

Results

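Genes of the mitochondrial respiratory chain were examined in 6 ChIP-seq peak lists of 4T1 cells. The members were all genes whose symbol began with Ndufa, Ndufb, Ndufc, Ndufs or Ndufv, with Uqcr, with Cox4 to Cox8 or with Atp5, together with Sdha, Sdhb, Sdhc and Sdhd. They were 87 of the 18562 genes that appeared in at least 1 of the 6 lists. The rule used names alone, but a gene had to have a called peak in at least 1 list to be found, so genes with such a name and no peak were not members. By name, 36 were subunits of complex I (7 core and 29 accessory), 7 were assembly factors of complex I, 4 belonged to complex II, 8 to complex III, 15 to complex IV and 17 to complex V. Ndufa4 and Ndufa4l2 were counted with complex IV, to which their proteins are now assigned. Atp5s and Atp5sl, whose current RefSeq names are Dmac2l and Dmac2, were kept in complex V by symbol.

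The respiratory chain sits in the inner mitochondrial membrane. Complexes I and II pass electrons from NADH and succinate to ubiquinone, complex III passes them on to cytochrome c, and complex IV hands them to oxygen, while complex V (ATP synthase) uses the resulting proton gradient to make ATP. Most subunits are encoded in the nucleus by housekeeping genes with short bodies and CpG-rich promoters, and trimethylation of histone H3 at lysine 4 (H3K4me3) marks promoters in use. H3K27me3 marks chromatin silenced by Polycomb proteins, and NUP210 is a membrane-spanning nucleoporin of the nuclear pore.

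4T1 is a mouse mammary tumor cell line derived from a spontaneous primary tumor of a BALB/cJ mouse. H3K4me3 and H3K27me3 were profiled in cells carrying a non-targeting guide RNA (sg-Ctrl) and in KO-N13 cells (KO), a single-cell clone in which Nup210 was knocked out by CRISPR/Cas9. NUP210 and several nuclear pore proteins recognized by 1 antibody (NPC) were profiled in sg-Ctrl cells only. Each of these 6 conditions has 1 library and KO is 1 clone, so no test of KO against sg-Ctrl was possible, and the effect of the knockout cannot be told apart from differences between clones, cultures or libraries. All intervals given are 95% intervals that cover counting error or the spread of genes, not the difference between cultures. ChIP reads were divided by the size of their library relative to IgG, 1.06 for H3K4me3 in sg-Ctrl and 1.35 in KO, and the densest peak within 4 kb of a transcription start site (TSS) stood for its gene. Values below are these scaled reads per kb of peak unless stated otherwise.

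The H3K4me3 peaks of all genes held 26236314 reads (sg-Ctrl) and 24873356 reads (KO), and 12197 genes had a TSS peak in both libraries. The median of their log2 ratios (KO to sg-Ctrl) was -0.50, so most genes had fewer scaled reads per kb in KO, and scaling by the reads of shared peaks instead of library size adds 0.42 to every log2 ratio. The ratios of the members are therefore read against that of all genes. The Nup210 promoter, which is no check of an edit inside the gene, had 321 scaled H3K4me3 reads per kb (sg-Ctrl) and 242 (KO), or -0.41 on the log2 scale. The epithelial genes Epcam, Cdh1, Krt7, Krt8, Krt18 and Krt19, a list chosen after the data were seen, all had a TSS peak in both libraries, while Ptprc, Cd3e and Itgam of leukocytes and Pecam1, Cdh5 and Kdr of endothelium had none.

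H3K4me3 was found at the TSS of 85 of the 87 members in both libraries, and no member was listed in 1 library alone. Reads per member peak ranged from 841 to 14764 in sg-Ctrl and from 1075 to 15306 in KO. In sg-Ctrl, members had a median of 693 scaled reads per kb, against 543 for all genes, and 64 of 85 lay above the median of all genes. In KO, their median was 511, against 382. The 7 isoforms of cytochrome c oxidase known to be restricted to some tissues (Cox4i2, Cox6a2, Cox6b2, Cox7a1, Cox7b2, Cox8b and Cox8c) had no H3K4me3 peak in either library. By contrast, Cox4i1, Cox6a1, Cox6b1, Cox7a2, Cox7b and Cox8a, which encode the common form of the same subunits, all carried the mark. Cox8c entered the set through H3K27me3 alone and Cox7b2 through H3K27me3, NUP210 and NPC. The other 5 restricted isoforms were in none of the 6 lists.

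Across complexes the order of levels in sg-Ctrl was complex II (median 884), complex III (840), complex V (787), complex IV (739), complex I accessory subunits (675), complex I core subunits (626) and complex I assembly factors (532). The interquartile ranges of all 7 groups overlapped, so no neighbors in this order differed beyond the spread of their genes. In KO, the order was complex II (576), complex IV (552), complex I core subunits (533), complex III (491), accessory subunits (489), assembly factors (469) and complex V (467). Ndufb9, an accessory subunit of complex I, had the highest level of any member in both libraries, 2245 in sg-Ctrl and 874 in KO. It was followed in sg-Ctrl by Atp5o, a subunit of the stalk of ATP synthase (1343 in sg-Ctrl and 817 in KO), and by Cox4i1, a subunit of complex IV (1242 and 726). The lowest member in sg-Ctrl was Ndufab1, the mitochondrial acyl carrier protein, with 344 in sg-Ctrl and 307 in KO.

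**Figure D1:**
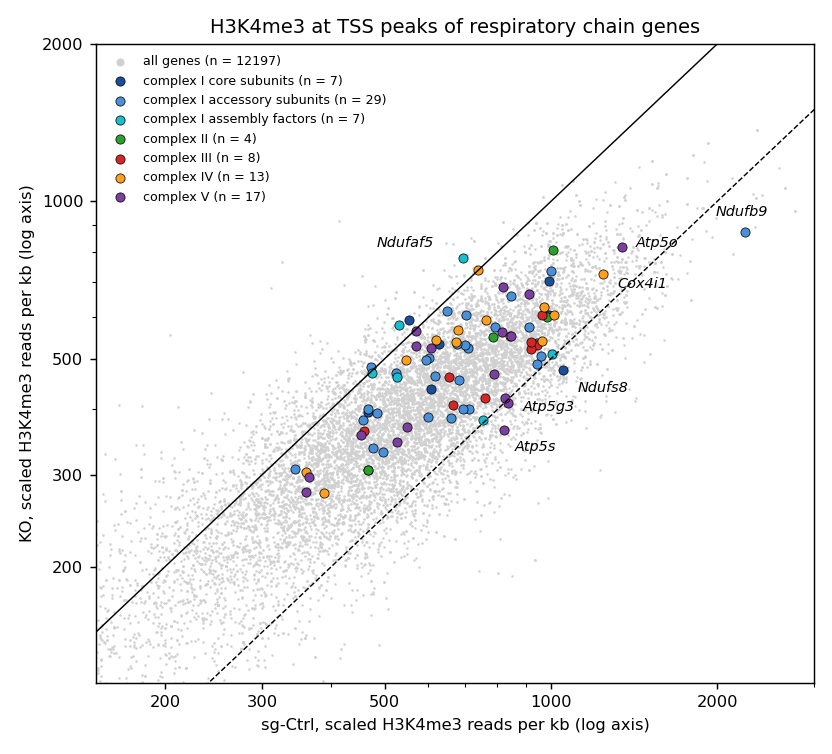
H3K4me3 at TSS peaks in sg-Ctrl (horizontal, scaled reads per kb, log axis) and KO (vertical, same unit) for the 85 members, colored by complex, over the genes with a peak in both libraries (gray; genes outside the axes are not drawn). The solid line marks equal values and the dashed line 2-fold lower in KO with library-size scaling; 4 members lie below the dashed line, and Ndufb9 has the highest level in both libraries.

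The ratios of the members were centered close to those of other genes. Their median was -0.49 on the log2 scale (interval -0.60 to -0.36), against -0.50 for all genes. The ratio was below 0 for 81 of 85 members (95.3%, against 88.7% of all genes). Scaled by shared peaks, it was below 0 for 48 of 85, beside 7034 of all 12197 genes. The medians were then -0.07 for members and -0.08 for all genes. At least 2-fold lower were 4 of 85 members (4.71%), beside 9.66% of all genes tested. No member was at least 2-fold higher, beside 0.525% of all genes. With shared-peak scaling, 0 members passed 2-fold in either direction, beside 1.25% of all genes lower and 1.73% higher. The spread of the members (SD of the log2 ratio 0.32) was narrower than that of all genes (0.44). The members' peaks also had more reads per kb, and the part of this in the narrower spread was not tested. Genes with a higher sg-Ctrl level had lower ratios, with a Spearman correlation of -0.61 over members and -0.52 over all genes. The sg-Ctrl level is the denominator of the ratio, so the pair is not independent. The part of level in the ratios of members and complexes was not tested.

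**Figure D2:**
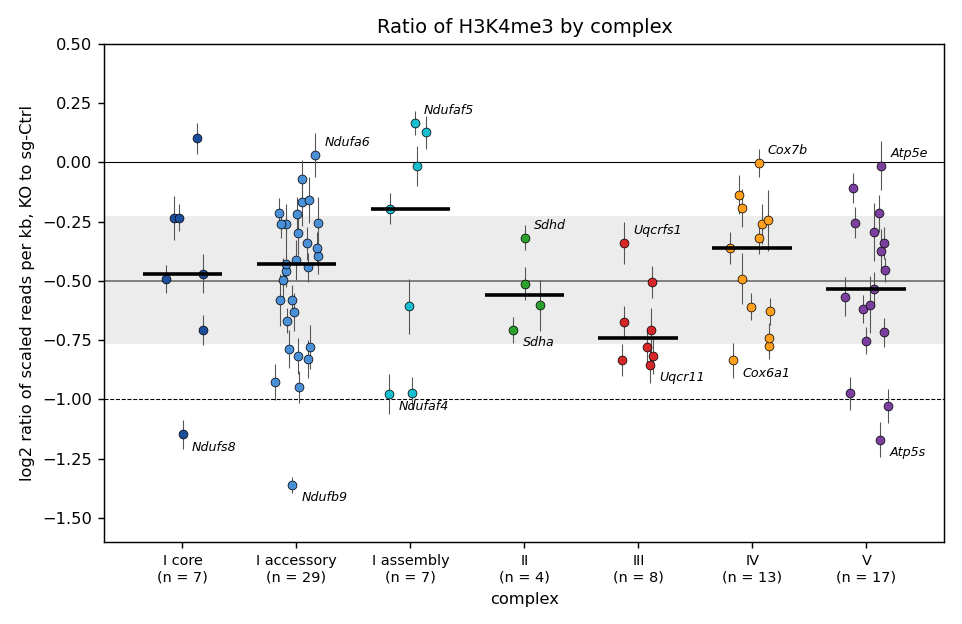
Log2 ratio of scaled H3K4me3 reads per kb, KO to sg-Ctrl with library-size scaling, for each member (points, with the counting interval) by complex. Thick bars are group medians, the gray band and line the interquartile range and median (-0.50) of all genes, and the dashed line 2-fold lower. Among these groups of members found by name, complex III has the lowest median (-0.74) and the assembly factors of complex I the highest (-0.20). Shared-peak scaling would move every point up by 0.42.

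Promoters of members at the extremes of their complex are shown because the compared H3K4me3 peaks lie over them. Of the 85 members with H3K4me3, 72 had a RefSeq promoter (GRCm38.p6, from 250 bases before the TSS to 50 bases after it), and 69 of these started within 100 bp of the TSS used in the lists. The sequences below run 5′ to 3′ along the gene. Capitals mark GCGCNNGCGC (N is any base), a core of the site of nuclear respiratory factor 1 (NRF1), and CCGGAAG, the ETS site read by GABPA, on either strand (the reverse of CCGGAAG reads CTTCCGG). Both factors are known regulators of respiratory chain genes.
Ndufs8, chr19:3912725-3913024, minus strand: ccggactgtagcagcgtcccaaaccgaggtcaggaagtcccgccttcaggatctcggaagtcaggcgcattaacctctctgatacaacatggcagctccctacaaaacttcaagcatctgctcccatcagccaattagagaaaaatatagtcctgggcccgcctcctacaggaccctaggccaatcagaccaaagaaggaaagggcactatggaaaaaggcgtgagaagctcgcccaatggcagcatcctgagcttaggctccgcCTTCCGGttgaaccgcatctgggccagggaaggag
Ndufa6, chr15:82354242-82354541, minus strand: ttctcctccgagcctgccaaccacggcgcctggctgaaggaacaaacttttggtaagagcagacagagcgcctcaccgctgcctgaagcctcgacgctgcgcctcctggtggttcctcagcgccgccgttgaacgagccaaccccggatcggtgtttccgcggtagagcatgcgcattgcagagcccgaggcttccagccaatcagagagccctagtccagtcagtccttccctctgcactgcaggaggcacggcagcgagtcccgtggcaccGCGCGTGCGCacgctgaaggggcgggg
Ndufaf4, chr4:24897833-24898132, plus strand: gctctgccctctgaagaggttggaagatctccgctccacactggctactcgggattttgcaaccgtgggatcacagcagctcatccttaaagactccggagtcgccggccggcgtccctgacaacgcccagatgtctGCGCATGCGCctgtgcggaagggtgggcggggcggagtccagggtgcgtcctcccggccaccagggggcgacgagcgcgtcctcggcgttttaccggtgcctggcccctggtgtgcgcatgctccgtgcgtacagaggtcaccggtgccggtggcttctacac
Ndufaf5, chr2:140170396-140170695, plus strand: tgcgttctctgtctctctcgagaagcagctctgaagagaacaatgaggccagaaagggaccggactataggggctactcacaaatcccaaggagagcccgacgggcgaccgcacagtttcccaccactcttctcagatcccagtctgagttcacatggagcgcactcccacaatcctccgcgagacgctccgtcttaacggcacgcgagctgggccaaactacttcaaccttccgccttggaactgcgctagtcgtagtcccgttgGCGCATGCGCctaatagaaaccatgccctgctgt
Sdha, chr13:74350191-74350490, minus strand: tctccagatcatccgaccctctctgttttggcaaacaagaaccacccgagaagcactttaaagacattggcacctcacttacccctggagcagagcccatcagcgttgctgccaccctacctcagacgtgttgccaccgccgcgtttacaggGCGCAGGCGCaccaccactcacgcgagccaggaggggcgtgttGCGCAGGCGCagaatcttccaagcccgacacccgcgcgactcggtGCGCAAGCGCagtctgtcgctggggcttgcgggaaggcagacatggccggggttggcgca
Cox6a1, chr5:115348909-115349208, minus strand: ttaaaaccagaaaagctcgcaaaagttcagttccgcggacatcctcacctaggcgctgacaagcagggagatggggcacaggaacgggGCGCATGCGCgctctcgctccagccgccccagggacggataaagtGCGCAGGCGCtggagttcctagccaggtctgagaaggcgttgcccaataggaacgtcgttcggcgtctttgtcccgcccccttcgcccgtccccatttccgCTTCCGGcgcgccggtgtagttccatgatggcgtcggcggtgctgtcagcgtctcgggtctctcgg
Sdha, the lowest of complex II by ratio, held 3 NRF1 cores, and Cox6a1, the lowest of complex IV, held 2 and an ETS match. Ndufaf4 and Ndufaf5 had the lowest and the highest ratio of the assembly factors, and each held the full palindrome GCGCATGCGC, at position -113 in Ndufaf4 and 16 in Ndufaf5 counted from the TSS at 0. Of the members with the lowest or the highest ratio of their group, 12 had a promoter in the table, and those shown are 6 of these that held a match. A match was present in 5 of the 6 lowest and in 4 of the 6 highest. Uqcr11, the lowest of complex III, held an ETS match, while Uqcrfs1, the highest, held neither motif, and Cox7b, the highest of complex IV, held neither. In complex V the lowest, Atp5s, held neither and the highest, Atp5e, held an ETS match. Sdhd, the highest of complex II, held both. A match is a description of the sequence and not a sign of binding.

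GCGCNNGCGC occurred in 20 of the 72 member promoters (27.8%, interval 18.8% to 39.0%), in 14.5% of the 9572 promoters of genes with H3K4me3 in both libraries and in 6.23% of all 32851 RefSeq promoters. AAGATGGC, a site of YY1, occurred in 13.9%, 5.04% and 2.75% of the same sets. CCGGAAG occurred in 22.2%, 19.9% and 8.86%, and GGGCGG, a site of SP1-like factors, in 44.4%, 67.3% and 35.7%. TATAAA was present in 6.94% of member promoters, beside 6.56% and 13.6%. Member promoters thus held the NRF1 and YY1 letters at a higher share, and GGGCGG at a lower share, than other promoters with H3K4me3. Their median GC content was 59.0%, against 61.7% for genes with H3K4me3 and 52.7% for all promoters. The H3K4me3 ratio was alike in members with the NRF1 core (median -0.47, n = 20) and without it (-0.46, n = 52). Members with the YY1 letters had a median of -0.24 (n = 10), against -0.49 for the other 62. Their median sg-Ctrl level was also lower, 548 against 701 scaled reads per kb, and its part in the ratio was not tested. All motifs were searched on both strands, and matches of different motifs may overlap.

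Complex I oxidizes NADH and is the largest group. Its 7 core subunits had a median log2 ratio of -0.47, and its 29 accessory subunits one of -0.43. Both were close to all genes, 0.03 and 0.07 above their median. Ndufs8, an iron-sulfur subunit of the hydrophilic arm (TSS at chr19:3912774), was the lowest core subunit. Its scaled reads per kb were 1052 for sg-Ctrl and 475 for KO, or -1.15 as a log2 ratio (-1.21 to -1.09). It also had the highest sg-Ctrl level of the core subunits. Its peak was 2800 bp wide in sg-Ctrl and 11800 bp in KO, where it joined 2 peaks of sg-Ctrl and was listed for Tcirg1 as well. Over the whole joined region, which held 2 peaks in sg-Ctrl, the log2 ratio of scaled reads was -0.34. The widest core subunit peak in sg-Ctrl was that of Ndufs1, which carries iron-sulfur clusters, with 7200 bp, 626 scaled reads per kb and a ratio of -0.23.

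Ndufb9 was the lowest of all members by ratio. At its TSS (chr15:58933810), 14764 reads fell in a peak of 6200 bp in sg-Ctrl and 15306 reads in a peak of 13000 bp in KO, and the log2 ratio per kb was -1.36 (-1.39 to -1.33). The total of scaled reads differed by only -0.29. The sg-Ctrl peak was also listed for Tatdn1, so the reads cannot be assigned to 1 of these genes. Ndufa6, an accessory subunit of the LYR protein family (TSS at chr15:82354291), was the highest of its group, with 473 in sg-Ctrl and 483 in KO (0.03, -0.06 to 0.12). Ndufb10, of the membrane arm, had the widest sg-Ctrl peak of the group, 6800 bp, which was also listed for Rps2, Snhg9 and 4 other genes, and its ratio was -0.26. Of the 29 accessory subunits, 28 had a ratio below 0, or 15 with shared-peak scaling, and 11 lay below the median of all genes. Ndufs5 had the same peak and reads as BC002163, a Ndufs5 pseudogene by its current RefSeq name, so its value (-0.58) belongs to both.

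The 7 assembly factors of complex I were split, with a median of -0.20 that became 0.23 with shared-peak scaling. Ndufaf8, listed under an older symbol and so outside the naming rule, had -0.57 and did not enter this median. Ndufaf4 (TSS at chr4:24898083) had 753 scaled reads per kb in sg-Ctrl against 383 in KO (-0.98, -1.06 to -0.89), and Ndufaf1, which had the highest sg-Ctrl level of the group, had 1003 and 511 (-0.97, -1.04 to -0.91). Ndufaf6 followed with -0.61. The other 4 lay between -0.20 and 0.17. Ndufaf5, a hydroxylase that acts on the core subunit Ndufs7, had the highest ratio of all members, with 693 in sg-Ctrl and 779 in KO (0.17, 0.12 to 0.22). Ndufaf7, a methyltransferase, had 531 and 580.5 (0.13, 0.06 to 0.20). The peaks of Ndufaf5 and Ndufaf7 were narrower in KO, 8200 to 6800 bp and 5800 to 4400 bp, and were shared with Esf1 and Cebpz, so on total reads both ratios were below 0 (-0.10 and -0.27).

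Complex II couples the tricarboxylic acid cycle to the chain, and its 4 subunits lay close together, with a median of -0.56, 0.06 below all genes. Sdha, the flavoprotein subunit (TSS at chr13:74350240), had 983 in sg-Ctrl and 602 in KO (-0.71, -0.76 to -0.65) and the widest peak of the complex, 5400 bp in sg-Ctrl. Sdhd, a membrane anchor (TSS at chr9:50603849), had the highest level, 1007 in sg-Ctrl and 808 in KO (-0.32, -0.37 to -0.26). The iron-sulfur subunit Sdhb and the other anchor Sdhc lay between them, at -0.60 and -0.51. All 4 sg-Ctrl peaks were also listed for a neighboring gene, as for Ccdc127 beside Sdha, Gm13031 beside Sdhb and Timm8b beside Sdhd.

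Complex III had the lowest median ratio per kb of all complexes. Its 8 genes had a median of -0.74 (-0.85 to -0.34), 0.24 below all genes. The interval included the median of all genes (-0.50), and 7 of the 8 lay below that median. Cyc1, a gene of complex III outside the naming rule, had a ratio of 0.28. On shared-peak scaling the median of the 8 genes was -0.32, and against the median of each gene's own chromosome -0.24. Uqcr11, a small subunit (TSS at chr10:80406821), was the lowest, with 760.5 in sg-Ctrl and 421 in KO (-0.85, -0.93 to -0.78). Uqcrb had the highest level of the complex, 965 and 605 (-0.67). Uqcrfs1, the Rieske iron-sulfur protein (TSS at chr13:30545316), was the highest by ratio, with 459 and 363 (-0.34, -0.43 to -0.25). Uqcrh, the hinge protein, had the widest sg-Ctrl peak, 5800 bp. Peaks of complex III were wider in KO for 6 of 8 genes, with a median of 3400 bp in sg-Ctrl and 4600 bp in KO. On total reads the median of the complex was -0.35, against -0.33 for all genes, so the distance from other genes was present in reads per kb and not in total reads.

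Complex IV had a median of -0.36 over 13 genes, 0.14 above all genes, and of 0.06 with shared-peak scaling. Cox6a1 (TSS at chr5:115348955) was the lowest, with 963 in sg-Ctrl and 540 in KO (-0.84, -0.91 to -0.76). Cox7b (TSS at chrX:106015700) was the highest, with 739 in sg-Ctrl and 738 in KO (-0.00, -0.06 to 0.06). Cox7b also had the widest peak of any member in sg-Ctrl, 9400 bp shared with Magt1. In KO this stretch held 2 peaks, of which the one at Cox7b was 3400 bp wide, and the total of scaled reads gave -0.55. The peak assigned to Ndufa4l2, a relative of Ndufa4 induced by low oxygen, lay upstream of its TSS in both libraries. It was the only member whose TSS was outside its peak. Its 841 reads in sg-Ctrl were the fewest of any member.

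Complex V had a median of -0.54 over 17 genes, 0.04 below all genes. Without Atp5s and Atp5sl, counted here by symbol alone, the median was -0.45, above that of all genes (-0.50). Atp5s (TSS at chr12:69724962) was the lowest, with 823 in sg-Ctrl and 366 in KO (-1.17, -1.24 to -1.1), in a peak that was 3400 bp wide in sg-Ctrl and 6200 bp in KO. Atp5g3 (TSS at chr2:73911294) had 837 and 411 (-1.03, -1.1 to -0.95) and was the one member past 2-fold whose peak was listed for no other gene in either library. Atp5g1, Atp5g2 and Atp5g3 encode the same mature c subunit of the rotor ring. Atp5g2 had the widest sg-Ctrl peak of the complex, 8600 bp, and a ratio of -0.34, and Atp5g1 one of -0.54 (Atp5g1 was named after its value was seen). The 5 genes of the catalytic part (head and central stalk) ranged from -0.97 for Atp5a1 to -0.01 for Atp5e. Atp5e (571 and 565, TSS at chr2:174464101) was the highest of the complex. Between them lay Atp5b at -0.62, Atp5c1 at -0.45 and Atp5d at -0.37. Atp5j had the same peak and the same reads as Gabpa, the DNA-binding subunit of GABP, with 787 in sg-Ctrl and 467 in KO (-0.75).

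Most member peaks were wider in KO. The median width was 3800 bp in sg-Ctrl and 4600 bp in KO, against 3600 and 4200 bp for all genes. In KO, 64 members had a wider peak, 6 the same width and 15 a narrower one, so 75.3% were wider, against 63.1% of all genes. The edge upstream of the TSS lay farther out for 56 members and the downstream edge for 60, and both did for 41. How many of all genes did so was not counted. The median upstream distance of all genes was 1409 bp in sg-Ctrl and 1739 bp in KO, and the downstream one 2078 and 2318 bp. The 64 wider members had a median log2 ratio of -0.57 per kb and -0.12 in total reads. The 15 narrower members had -0.21 per kb and -0.52 in total. All genes showed the same pattern, with -0.56 per kb and -0.20 in total for wider peaks and -0.39 and -0.64 for narrower ones. Width enters the reads per kb, so these pairs of values are not independent.

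**Figure D3:**
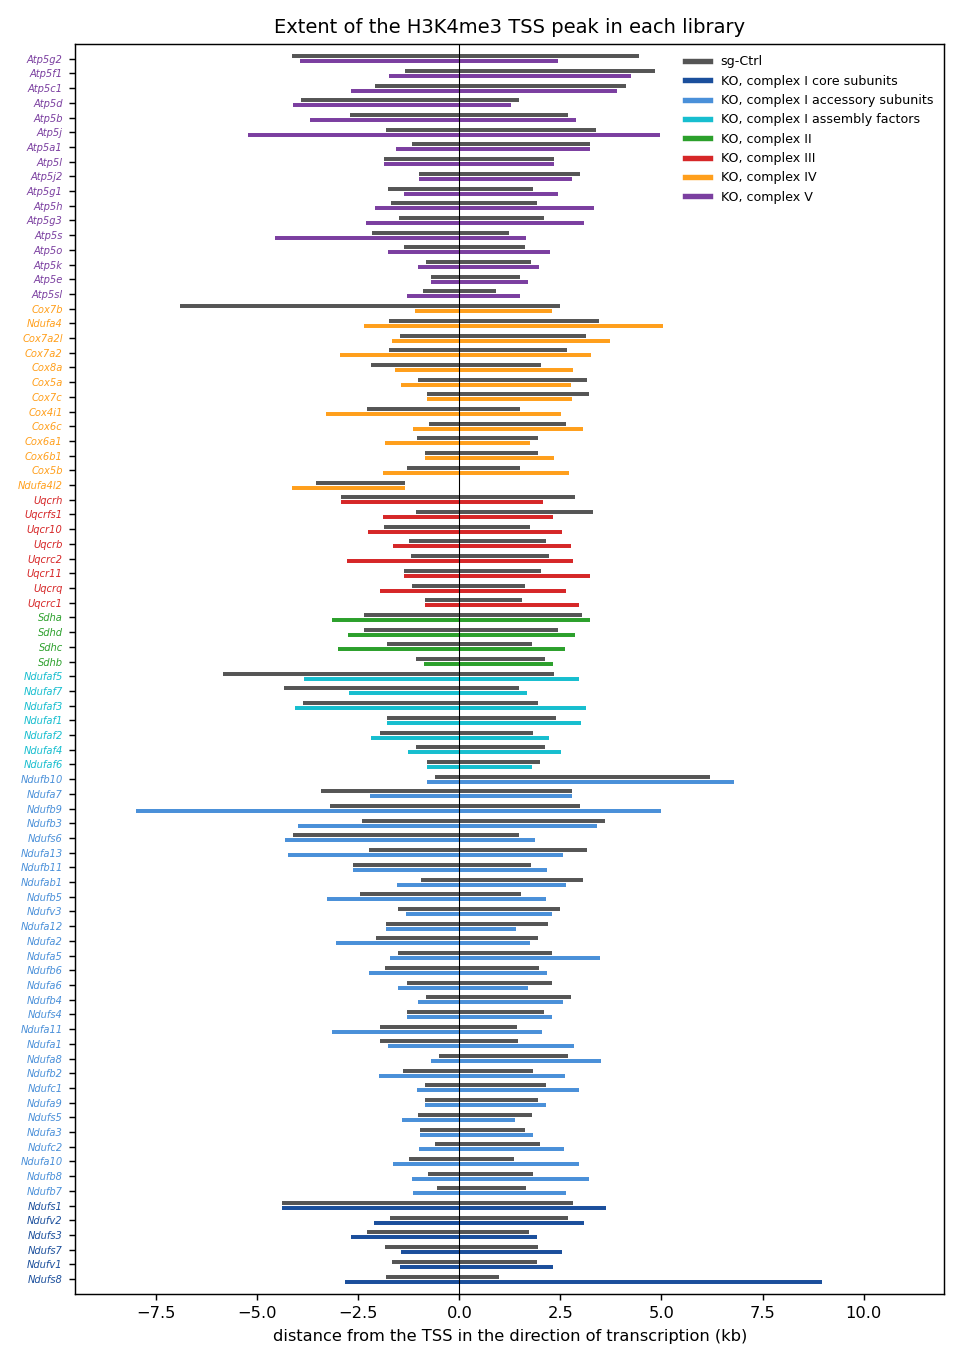
Extent of the H3K4me3 peak used for 84 of the 85 members around its TSS (horizontal, kb in the direction of transcription), in sg-Ctrl (gray) and KO (colored by complex), ordered by complex and by width in sg-Ctrl. The KO peaks of Ndufs8 and Ndufb9 reach over 2 times the sg-Ctrl width, and that of Cox7b (3400 bp) is narrower than its sg-Ctrl peak (9400 bp) by the most.

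On total scaled reads the members had a median log2 ratio of -0.25, against -0.33 for all genes, and their values ran from -0.85 for Atp5a1 to 0.93 for Ndufs8. No member was 2-fold lower in total reads, beside 7.29% of all genes, and none 2-fold higher, beside 1.70%. Joined regions of overlapping peaks were a measure added after the values were seen. There the range was -0.85 to 0.36, and the median was -0.25, against -0.33 for all genes. Again 0 members passed 2-fold in either direction, beside 880 of 12197 genes lower and 155 higher. The sign of the ratio depended on the measure for 22 members. For 18 the ratio was below 0 per kb and above 0 in total, as for Ndufs8, and for 4, among them Ndufa6, Ndufaf5 and Ndufaf7, the reverse held. The other 63 were below 0 by both measures, and none was above 0 by both.

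**Figure D4:**
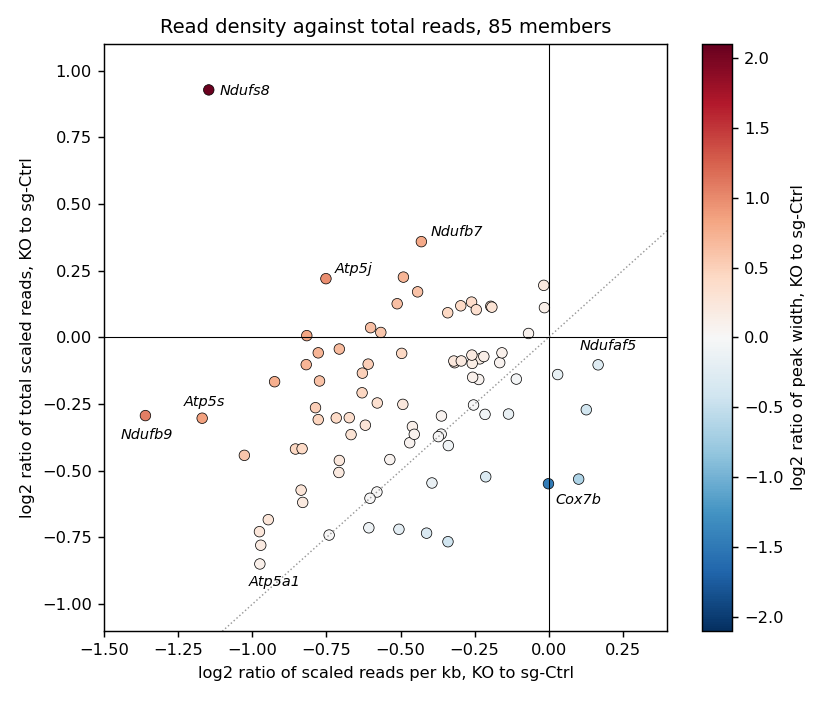
Log2 ratio of scaled H3K4me3 reads per kb (horizontal) and of total scaled reads (vertical), KO to sg-Ctrl with library-size scaling, for the 85 members, colored by the log2 ratio of peak width (red, wider in KO). The dotted line marks equal values; 18 members lie in the upper left part, none in the upper right and 4 in the lower right.

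Many member promoters were shared. The sg-Ctrl TSS peak of 42 of 85 members (49.4%) was listed for another gene too, against 33.5% of all genes. Sharing was seen in all 4 genes of complex II, 16 of 29 accessory subunits of complex I and 9 of 17 genes of complex V, but in 2 of 13 of complex IV, which were Cox4i1 with Emc8 and Cox7b with Magt1. Partners included further mitochondrial genes, such as Timm8b, an inner membrane chaperone, beside Sdhd, and the mitochondrial ribosomal genes Mrpl36 and Mrpl47 beside Ndufs6 and Ndufb5. Ndufa7 shared its peak with the cytosolic ribosomal gene Rps28. Reads in such peaks cannot be divided between the genes. Of the 4 members at least 2-fold lower, Ndufs8 and Atp5g3 had an unshared peak in sg-Ctrl, and only Atp5g3 had one in both libraries.

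Ratios also differed with chromosome. All 6 members on chromosome 4 lay below the median of all genes, and the median of all genes there was -0.72. Both members on chromosome 18, Atp5a1 (-0.97) and Ndufa2 (-0.95), were close to the 2-fold limit, and the median of that chromosome was -0.72 as well. Chromosome 5 had the same all-gene median (-0.72), yet its 3 members had a median of -0.29 and 1 of them lay below the median of all genes. On chromosome 17, where the median was -0.43, none of 7 members lay below the median of all genes. Relative to the median of their own chromosome, the members had a median of 0.02, complex IV one of 0.10 and the assembly factors of complex I one of 0.25. The part of the chromosome in these ratios was not tested.

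NUP210 was examined over gene bodies, which for the members are short. Their median gene length was 7.34 kb, against 19.4 kb for all genes with H3K4me3 in both libraries. A NUP210 peak met 17 of the 87 members. Of the 85 members with H3K4me3 it met 16 (18.8%), beside 26.1% of all genes with H3K4me3 in either library. The share of genes with a peak grew with length, from 7.18% of other genes under 5 kb to 57.1% of those over 50 kb. Among genes under 5 kb, 1 of 26 members had a peak (Cox7c). Among genes of 5 to 10 kb, 8 of 32 members had one (25%, 13.3% to 42.1%), against 8.60% of 1768 other genes (7.38% to 10%). In the classes of 10 to 20 kb and 20 to 50 kb, 2 of 14 and 3 of 11 members had one, against 14.6% and 29.7% of other genes. The 2 members over 50 kb, Ndufs4 and Ndufaf2, both had one. The members' shares were thus within counting error of other genes except in the class of 5 to 10 kb.

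Those 8 members of 5 to 10 kb were Atp5j, Cox6c, Ndufa4, Ndufb3, Ndufb4, Ndufb6, Ndufb8 and Ndufb9. The peak was wider than the gene in all 8, with a median width of 20.5 kb, and it met several genes for 6 of them. At Ndufb9 it was 72.0 kb wide, met 5 genes and had 3288 reads against 3195 of IgG (1.02-fold over IgG, FDR 0.19). At Ndufa4 it was 66.0 kb wide and 1.01-fold over IgG.

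NUP210 signal was low over the members, as it was in the whole list. The 22 member peaks had a median of 1.27-fold over IgG, against 1.19 for all 13204 peaks. The best peak of each of the 17 genes had a median of 1.24-fold over IgG, and none reached 2-fold. The share of all genes in the list that reached 2-fold was not counted. By the authors' fold, Ndufb6, an accessory subunit, was the highest with 314 reads against 165 of IgG (1.88-fold, FDR 3.14e-23), in a peak of 17 kb at chr4:40259000-40275999 that covered 61.3% of the gene but not its TSS. Ndufaf2 followed at 1.82-fold, Ndufs4 at 1.76-fold, Atp5f1 at 1.72-fold, Ndufb8 at 1.43-fold, Ndufb4 at 1.38-fold, Atp5j at 1.38-fold, Ndufv2 at 1.37-fold, Cox7c at 1.24-fold and Ndufb3 at 1.23-fold. These are subunits of complexes I, IV and V or assembly factors. None of the 4 genes of complex II (median length 19.7 kb) or the 8 of complex III (4.87 kb) had a NUP210 peak. Of other genes with H3K4me3, 7.18% under 5 kb and 14.6% of 10 to 20 kb had one. With so few genes, 0 does not set these complexes apart from such shares. The TSS was inside a NUP210 peak for 9 of the 17 genes and the whole gene for 4 (Cox6c, Cox7c, Ndufa4 and Ndufb9). A NUP210 peak overlapped the H3K4me3 peak for 10. The matching shares of all genes in the list were not counted, so these counts do not set the members apart. An FDR of at most 0.05 was met by 13 of the 17 genes, beside 79.9% of all genes in the list.

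**Figure D5:**
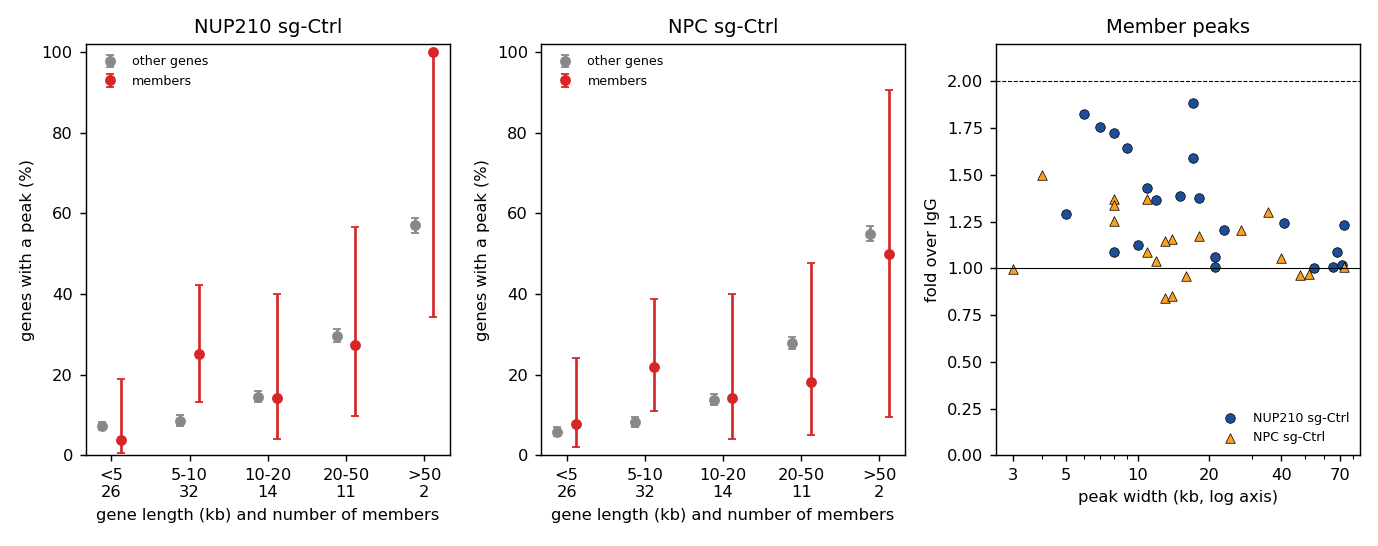
Share of genes with a NUP210 (left) or NPC (middle) peak on the gene body by gene length, for members (red; their number is under each class) and other genes (gray) with H3K4me3, with 95% Wilson intervals. Right, width (kb, log axis) and fold over IgG of each member peak, including those of Cox7b2, with the solid line at 1 and the dashed line at 2; all member peaks lie below 2-fold.

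The NPC antibody gave a peak on 15 of 87 members, and on 14 of the 85 with H3K4me3 (16.5%), beside 24.7% of all genes with H3K4me3. At a gene length of 5 to 10 kb, 7 of 32 members had one (21.9%), against 8.14% of 1768 other genes. The intervals of these shares did not overlap. The peak was wider than the gene for 6 of these 7 members and met several genes for 5. In the other length classes the members' shares were within counting error of other genes, with 2 of 26 under 5 kb against 5.82%. Ndufa8 was the highest at 1.5-fold over IgG, followed by Cox7b2 and Ndufb3 at 1.37-fold, Ndufa5 at 1.34-fold, Cox7c at 1.30-fold, Atp5f1 at 1.25-fold, Atp5j at 1.17-fold, Ndufb4 at 1.14-fold, Cox7a2 at 1.05-fold and Sdha at 1.04-fold. Of the 20 NPC peaks on members, 6 had fewer reads than scaled IgG, and 8 of the 15 genes had a peak with an FDR of at most 0.05, beside 65.2% of all genes in the list. NUP210 and NPC shared 11 genes, which are 64.7% of the members with NUP210 and 73.3% of those with NPC. Over all genes, the shared ones were 77.8% of the genes with NUP210 and 85.7% of those with NPC. At Atp5f1 and Atp5j the peaks of both antibodies had the same start and end. Of the shared genes, 6 (Atp5f1, Atp5j, Cox7b2, Cox7c, Ndufb3 and Ndufb4) met an FDR of 0.05 with both antibodies.

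Members with and without a NUP210 peak had much the same H3K4me3 ratio. The 16 members with a peak had a median of -0.45 (-0.83 to -0.11), and the 69 without had -0.49 (-0.60 to -0.34). Among all genes the values were -0.60 with a NUP210 peak and -0.46 without. All genes with a peak also had a higher median sg-Ctrl level (668 against 505) and gene length (49.8 against 14.1 kb). The part of level and length in these ratios was not tested. Of the 4 members at least 2-fold lower, Ndufb9 and Atp5s had a NUP210 peak, at 1.02-fold and 1.06-fold over IgG, and Ndufs8 and Atp5g3 had none.

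No member carried both marks. None of the 85 members with H3K4me3 had an H3K27me3 peak on its gene body in sg-Ctrl, beside 6.33% of all genes with H3K4me3, and none had one in KO, beside 5.19%. Shorter genes had fewer such peaks. For other genes under 5 kb, of 5 to 10 kb and of 10 to 20 kb, the shares were 3.24%, 2.71% and 3.29% in sg-Ctrl. In KO they were 2.44%, 2.60% and 2.86%. The members' intervals in these classes reached 12.9%, 10.7% and 21.5%, so they included these shares. Cox7b2 and Cox8c, isoforms known from testis, had H3K27me3 in both libraries. Cox8c, a gene of 1.23 kb on chromosome 12, lay within a peak of 68.0 kb in sg-Ctrl and 63.0 kb in KO, at a density of 32.9 and 31.3 scaled reads per kb and a fold over IgG of 2.53 in both. Cox7b2, a gene of 105 kb on chromosome 5, had 2 peaks covering 74.0 kb in sg-Ctrl and 4 peaks covering 67.0 kb in KO, at a density of 27.2 and 24.1. One of its peaks in each library had fewer reads than scaled IgG. Cox7b2 was also the one member without H3K4me3 that had NUP210 and NPC peaks.

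Genes outside the naming rule that serve the same chain had H3K4me3 in both libraries without exception among the genes listed for 2 electron carriers, 38 assembly factors, the tricarboxylic acid cycle (14) and regulators (14). Cyc1, the cytochrome c1 of complex III, had 340 scaled reads per kb in sg-Ctrl against 413 in KO (0.28, 0.16 to 0.41). This ratio was above that of every member. Cycs, cytochrome c itself, had 933 and 561 (-0.73). The 38 further assembly factors had a median of -0.44, and 6 were at least 2-fold lower, beside 9.66% of all genes, and 0 at least 2-fold higher. With shared-peak scaling 1 was 2-fold lower, and on total reads 2 were lower and 1 higher. The 6 by reads per kb were Cox16 (-1.57), Sco1 (-1.18), which delivers copper to complex IV, and Selrc1 (-1.11) for complex IV, Tmem70 (-1.28) for complex V, Sdhaf2 (-1.24), which helps attach flavin to Sdha, and Lyrm7 (-1.05), which brings Uqcrfs1 into complex III. Selrc1 had a peak of 2400 bp in both libraries, so its total reads gave the same ratio, while Lyrm7 was above 0 in total reads (0.14).

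The 14 genes of the tricarboxylic acid cycle had a median of -0.63, with Ogdh (-1.08), a subunit of oxoglutarate dehydrogenase, 2-fold lower. Regulators of these nuclear genes had a median of -0.68 over 14, and none passed 2-fold. Among them were Nrf1 (-0.71), Gabpa (-0.75), Gabpb1 (-0.66), Gabpb2 (-0.97), Yy1 (-0.79), Tfam (-0.79), Tfb1m (-0.50), Tfb2m (-0.94), Polrmt (-0.85), Pprc1 (-0.37), Esrra (-0.41), Polg (-0.15), Ppargc1a (-0.08) and Ppargc1b (0.17). For comparison, the 80 cytosolic ribosomal protein genes with a TSS peak in both libraries had a median of -0.46 and the 76 mitochondrial ones -0.65, against -0.49 for the members. Of the latter 76, 12 (15.8%) were at least 2-fold lower, beside 9.66% of all genes, or 0 with shared-peak scaling and 3 on total reads.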

How the data were processed

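ChIP-seq peaks were called by the authors with SICER per library with IgG as control, in windows of 200 bp (H3K4me3) or 1000 bp (broad targets; not stated for NPC). The aligner and build of the ChIP-seq reads are not given in the sources used here. The submitters' processing notes name mm9, mm10 and NCBIM37 without roles, while gene coordinates in the lists follow GRCm38. The deposited lists hold, for each peak and gene, raw counts of ChIP and IgG reads, p-values and FDRs, and a fold, the ratio of both counts after scaling by library size, with 0.25 reads in place of 0 IgG reads. H3K4me3 peaks were paired with windows of 4 kb on either side of a TSS, and the other targets with gene bodies. RNA-seq (4 samples) was not analysed here, and the 3 IgG samples entered only through IgG counts.

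The library ratio was recovered from counts and folds. Read ratios carry exact conditional binomial intervals, medians order-statistic intervals and shares Wilson intervals, at a level of 95%. Reads are not unique molecules, so these cover counting error only. Depth beyond reads in peaks is unknown. Joined regions merge overlapping peaks of both libraries (at least 1 bp). With 1 library per condition no count model or test was run. Members and lists were chosen with earlier results of these data known. Named were, in each complex, the members with the lowest and highest ratio, most reads per kb and widest peak, those past 2-fold, with H3K27me3 or among the 10 highest folds for NUP210 or NPC, tissue-restricted cytochrome c oxidase isoforms, and pathway genes past 2-fold, cytochromes c or regulators. Others were named after their values were seen. Some items are not reported here. Older symbols were matched to RefSeq by transcript, for 97 of 97 member transcripts. The steps were tested on simulated data. Software was matplotlib 3.10.9, scipy 1.17.1, pandas 2.3.3, numpy 2.4.6 and Python 3.11.15.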

Additional observations from a re-analysis of the deposited data

How the results depend on the processing

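Of 82 alternatives over 16 results, 45 kept the value within the spread or within 1.5 times the count, 32 moved it and 5 turned its sign. The cause was not tested. The sign turned for complex IV with shared-peak scaling, and otherwise only for values against the own chromosome. Those values subtract a chromosome median below 0, so they are a different quantity and their sign cannot be compared. The median log2 ratio of the members (-0.49) was -0.068 when scaled by reads in shared peaks, -0.15 with no scaling, -0.25 from total reads and from the union of peaks, which is the same ratio by construction, -0.25 from joined regions, and 0.022 against each member's own chromosome. The count of members at least 2-fold lower (4) was 0 with shared-peak scaling, from total reads, from the union and from joined regions, 1 with no scaling or for peaks listed for no other gene in either library, 2 for peaks that differed at most 2-fold in width, and 12 by the authors' fold, by which 1 member was 2-fold higher. The share of all genes past 2-fold by the authors' fold was not counted. Joined regions, the limit on width, leaving out chromosomes 4, 5 and 18, and leaving out Atp5s with Atp5sl or Ndufa4 with Ndufa4l2 were chosen after seeing the data. Shared-peak scaling gave -0.014 for complex I, -0.14 for complex II, -0.32 for complex III, 0.060 for complex IV and -0.11 for complex V. Total reads gave -0.19, -0.28 and -0.13 for complexes I, II and IV. Against the own chromosome, complexes I to V had 0.066, 0.058, -0.24, 0.10 and -0.034. The 17 members with NUP210 became 0 with a fold over IgG of at least 2 and 6 with the peak midpoint inside the gene. The 15 with NPC became 8 at an FDR of at most 0.05, 7 at 0.01, 0 at 2-fold and 6 by midpoint. The 2 with H3K27me3 became 1 by midpoint in either library, and 1 at 2-fold in sg-Ctrl. No paired analysis was possible because each ChIP condition has 1 library.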
